A study of Homo sapiens with 3 samples.

Results

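Tamoxifen was compared with its ethanol vehicle after 3 h in T47D, an established line of human breast cancer cells of luminal type that carries the estrogen and progesterone receptors. Of the 3 arrays of the series, 2 entered: 1 array of cells given 1 uM tamoxifen and 1 array of cells given 0.1% ethanol. For each probe set the vehicle value was taken from the tamoxifen value, the median over the probe sets with 1 gene symbol gave the value of a gene, and the median of all 19775 genes was set to 0. These 19775 genes came from 41091 of 54675 probe sets. With 1 array a side there was no replicate, so no test, SD between samples or p-value could be given, and each value compares 2 hybridisations. The arrays of 1 line treated once limit the precision of every value below.

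Both cultures grew in RPMI medium with 10% serum, spent 4 h in medium whose 10% serum had been stripped with charcoal, which takes out steroids, and then received vehicle or drug. Tamoxifen is a selective modulator of the estrogen receptor that blocks its action in breast tissue and is used against breast cancer. The estrogen receptor alpha, product of ESR1, is a transcription factor that ligand binding moves onto DNA, where it recruits coactivators or, with an antagonist bound, corepressors. Tamoxifen also binds other proteins, among them the enzymes of late cholesterol synthesis that form the antiestrogen binding site, and as a cationic amphiphile it can gather in lysosomes. Transcripts of immediate early genes, stress genes and many cell cycle genes turn over fast.

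Values of genes are log2 differences, tamoxifen minus vehicle, relative to the median gene, unless a sentence says otherwise. At least 2-fold means a difference of 1 or more in size. On this rule 679 genes (3.43%) lay past the cutoff, 326 (1.65%) higher and 353 (1.79%) lower on the tamoxifen array, and by construction 50% of genes lay above 0. The median difference that was subtracted was 0.10. Without this step the split was 428 higher and 217 lower, so the balance of the 2 directions depends on it. Of the lower genes named below, CDKN1A, DUSP4, IRF9, KLF10, MCM7, MT1H, PKM, S100P, SARS1 and SGSH miss the cutoff without it, at -0.99 to -0.90. CXCL1, also named below, narrowly misses the cutoff without it too. The spread of all genes (scaled median absolute deviation) was 0.36, and the pooled SD between probe sets of the same gene was 0.51. The genes just inside the cutoff read 1.0042 and -1.00003 and those just outside it 0.9998 and -0.9977, so the cutoff lies in a continuous range.

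The deposited log2 values carry a centre per probe set that was subtracted before deposit, so levels are not known. The label luminal could thus not be checked on levels, and marker genes were read as differences between the 2 arrays. The median values of the arrays were -0.0070 for vehicle and 0.081 for tamoxifen, and the SD over probe sets was 0.193 and 0.445. Control probe sets also separated the arrays. As deposited, 18S ribosomal RNA read 1.59 to 2.13 higher on the tamoxifen array. The 3' minus 5' signal was lower there by 0.77 for ACTB (beta actin) and by 0.54 for GAPDH, a glycolytic enzyme. Among hybridisation spikes, which are added in fixed amounts after labelling, 9 older probe sets read between -4.32 and -1.97, whereas 9 newer probe sets, which carry r2 in their names, read 0.13 to 0.48. The treatment and the array cannot be told apart, and the part of these control signals in the gene values was not tested.

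Genes whose probe sets agreed came first, since scatter between probe sets was the part of technical error that could be read. Probe sets of a gene share the RNA and the hybridisation of each array. Their agreement therefore cannot show error that the whole array shares. Of 10523 genes with several probe sets, 54 (0.513%) had every probe set past 2-fold on one side, 22 (0.209%) higher and 32 (0.304%) lower. Among the 15 highest of these were ASPM, which organises the spindle poles, TEAD1, the DNA-binding partner of the Hippo effector YAP1, and PDGFC, a growth factor. Among the 15 lowest were FOLR1, the folate receptor alpha, TNFAIP3, a feedback inhibitor of NF-kB, and SESN2, which restrains mTOR under amino acid shortage.

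The 3 probe sets of ASPM read -0.81, -1.02 and -1.05 on the vehicle array and 0.72, 1.56 and 2.86 on the tamoxifen array, as deposited. The gene value was 2.48, or 5.59-fold. LHFPL6, a membrane protein, lay 2.16 higher, with probe sets at 2.10 and 2.22. FAM111B, a protease, lay 2.06 higher, and PDGFC 2.04 higher, or 1.26 without the probe set of the suffix _s_at. TEAD1 read -0.25, -0.24 and 0.042 on the vehicle array against 0.88 to 2.13 on the tamoxifen array, a difference of 1.79. ME2, the mitochondrial malic enzyme, showed the closest agreement among the genes with 3 probe sets named here, at 1.32 to 1.39. SDC2 (syndecan 2) read 1.39, RBL2 (the pocket protein p130) 1.53 and HSP90B1, the chaperone GRP94 of the endoplasmic reticulum, 1.28. The others of the 15 were NIPSNAP3B, FLRT3, RESF1, NBEA, RBM43 and NOL4, between 1.28 and 1.99.

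At the low end, the probe sets of FOLR1 read 0.081 and 0.10 on the vehicle array and -3.38 and -1.10 on the tamoxifen array, as deposited. The gene value was -2.44, or 5.42-fold lower, although its 2 probe sets differed widely in size (-3.56 and -1.31). TNFAIP3 showed the opposite layout, with 2.04 and 2.79 on the vehicle array and 0.25 and 0.11 on the tamoxifen array. Its gene value was -2.34. SESN2 read -2.15, IRF1 (an interferon and NF-kB responsive transcription factor) -2.06, PMAIP1 (the death protein NOXA) -1.88 and PPP1R15A (GADD34, which restores translation after stress) -1.77. ISG20, an RNA exonuclease, lay at -1.72, YARS1, the tyrosyl-tRNA synthetase, at -1.57, GALNT6, which starts O-glycosylation, at -1.42 and MT1X, a metallothionein, at -1.37. CEP126, FIBCD1, SNHG17, ASMTL and LRRC46 completed the 15, between -1.60 and -1.32.

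**Figure D1:**
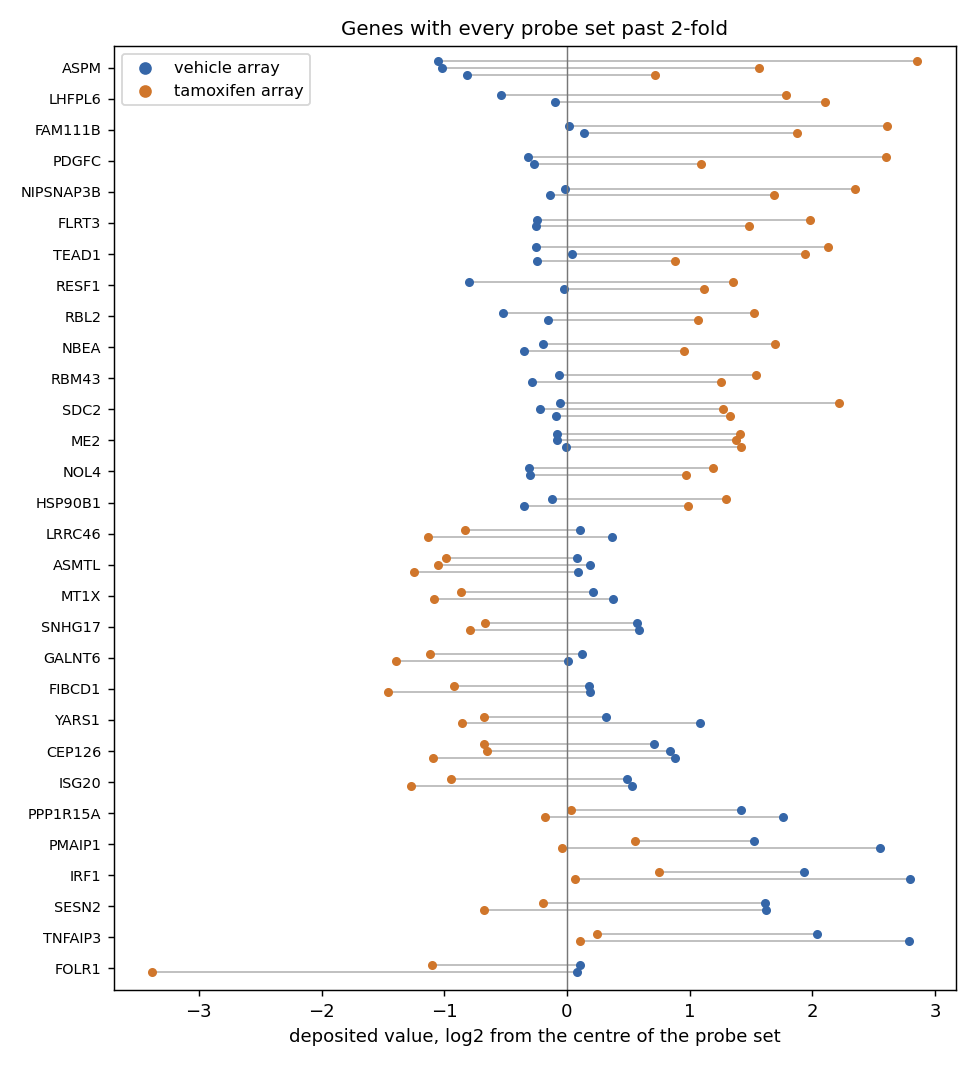
Deposited log2 values of each probe set of the 15 highest and 15 lowest genes whose probe sets were all past 2-fold, with 1 line per probe set joining the vehicle array (blue) and the tamoxifen array (orange). FOLR1 and GALNT6 lie near 0 on the vehicle array and low on the tamoxifen array, whereas TNFAIP3, IRF1 and PMAIP1 lie high on the vehicle array and nearer to 0 on the tamoxifen array.

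The same difference thus came in 2 layouts, and the values relative to the centre of each probe set separate them. Each gene was given a position on each array, its value relative to the centre of the probe set with the median gene of that array at 0. Positions are medians taken separately, so they need not subtract exactly to the difference of a gene. The centre was made before deposit, and which arrays entered it is not given in the sources used here. The estradiol array may have entered it, and positions would then depend on that array too. A position thus says how far an array lay from that centre and nothing about the level of the gene.

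Over all 19775 genes the vehicle array was the farther from the centre in 28.7%, and the SD of positions was 0.17 for vehicle and 0.35 for tamoxifen. For the 353 lower genes the vehicle array was the farther in 54 (15.3%), and for the 326 higher genes in 16 (4.91%). The typical higher gene sat at -0.16 on the vehicle array and 1.07 on the tamoxifen array, and the typical lower gene at 0.24 and -0.90. Most genes past the cutoff were therefore off the centre on the tamoxifen array. The 54 exceptions among the lower genes had a median position of 1.11 on the vehicle array and -0.15 on the tamoxifen array, and they included the lowest genes of the comparison.

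**Figure D2:**
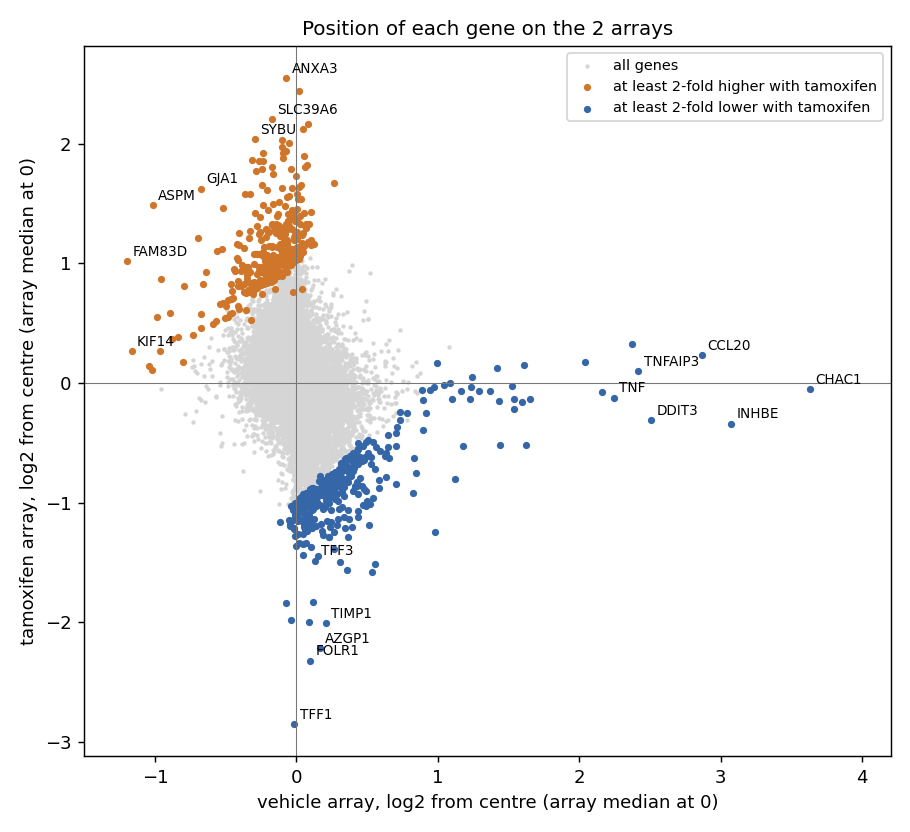
Position of 19775 genes on the vehicle array (horizontal, log2) and on the tamoxifen array (vertical, log2), each with the median gene of the array at 0, with genes at least 2-fold higher in orange and lower in blue. CHAC1, INHBE and CCL20 lie far to the right near a tamoxifen position of 0, TFF1 and FOLR1 lie at the bottom near a vehicle position of 0, and ANXA3 and SLC39A6 lie at the top.

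Genes of the amino acid and endoplasmic reticulum stress response were off the centre on the vehicle array. ATF4 is the transcription factor that is translated when the initiation factor eIF2 is phosphorylated, and its targets restore amino acid supply or, after long stress, promote death. This list and those below were chosen with earlier results of these data known, so comparison with all genes is description and not support. Of 22 measured ATF4 targets, 20 lay below 0, 10 were at least 2-fold lower (1.79% of all genes were) and 0 were at least 2-fold higher, with a list median of -0.85. All 10 were farther from the centre on the vehicle array, against 54 of 353 lower genes in general. The list had a median position of 0.69 on the vehicle array and -0.093 on the tamoxifen array. These targets were thus read above the centre with vehicle and near it with tamoxifen.

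CHAC1, which degrades glutathione, sat at 3.63 on the vehicle array and -0.050 on the tamoxifen array, a difference of -3.70 or 13.01-fold. INHBE, an inhibin subunit of the TGF-beta family, sat at 3.07 and -0.34, a difference of -3.43. DDIT3, the transcription factor CHOP that promotes stress-induced death, sat at 2.51 and -0.31, a difference of -2.84. Each rested on 1 probe set, whereas both probe sets of SESN2 (-2.40 and -1.91) and of PPP1R15A (-2.04 and -1.49) were past the cutoff. CEBPB, a partner of CHOP, lay at -1.80 on 1 probe set. Members near the list median were ASNS (asparagine synthetase, -0.86), NUPR1 (-0.83), FGF21 (a stress-induced hormone, -0.70) and CEBPG (-0.69). ATF4 itself, named after its value was seen, lay at -1.13, with positions of 0.70 and -0.41.

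The promoter sequences of CHAC1 and ASNS are shown because both carry the letters of the composite element that ATF4 and its partners bind, in genes at the low end and at the middle of the list. Sequences here and below come from RefSeq (GRCh38.p14), run 5' to 3' on the strand of the gene and end at or before its start, and capitals mark the motif. The motif TGATGNAA was searched on both strands of a window of 250 bases before to 50 bases after the start. It was found in 6 of 19 ATF4 targets with a promoter in the table and in 4.46% of all 27305 genes there. Of these 6, 1 was at least 2-fold lower, against 7 of the 13 without it. CHAC1 is at chr15:40953221-40953306 (plus strand) and ASNS at chr7:97872432-97872521 (minus strand), with the motif 209 and 68 bases before the start.
CHAC1: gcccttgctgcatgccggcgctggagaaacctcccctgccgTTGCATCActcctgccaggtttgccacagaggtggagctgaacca
ASNS: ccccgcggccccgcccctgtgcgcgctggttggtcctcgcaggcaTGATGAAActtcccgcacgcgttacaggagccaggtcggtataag

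Genes that supply or load amino acids had smaller median differences. Of 15 amino acid transporters, 11 lay below 0 and 3 were at least 2-fold lower (1.79% of all genes were). These 3 were SLC3A2 (the heavy chain shared by several transporters, -1.94), SLC7A11 (the cystine transporter, -1.31) and SLC1A4 (-1.16). Without probe sets of the suffixes _s_at and _x_at SLC1A4 read -0.48, and with the mean over probe sets SLC7A11 read -0.98. The list median was -0.34. Of 17 aminoacyl-tRNA synthetases of the cytosol, 5 lay above 0 and 12 below, with a median of -0.22. YARS1 (-1.57) and SARS1 (-1.005) were at least 2-fold lower and EPRS1 was higher (1.29, with probe sets from -0.24 to 2.75), and these 3 were farther from the centre on the tamoxifen array. Genes of the other branches of the unfolded protein response did not share the pattern, with 8 of 19 above 0, 11 below and a median of -0.21. HSP90B1 was the 1 member past the cutoff, on the higher side. Heat shock chaperones had a median of 0.091, with 0 of 12 past the cutoff in either direction.

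Inflammatory genes controlled by NF-kB had the same layout. NF-kB is held in the cytoplasm by inhibitors and, once freed, switches on chemokines, cytokines and its own inhibitors. Of 18 measured targets, 16 lay below 0, with a median of -0.64. At least 2-fold lower were 7 (1.79% of all genes were), and 0 were higher. All 7 were farther from the centre on the vehicle array, and the list sat at 0.52 there and at -0.0015 on the tamoxifen array. Without probe sets of the suffixes _s_at and _x_at, which can match several transcripts, 13 members remained with a median of -0.21.

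CCL20, a chemokine, sat at 2.86 on the vehicle array and 0.23 on the tamoxifen array, a difference of -2.65 or 6.29-fold. TNF, the cytokine that itself activates NF-kB, sat at 2.24 and -0.12, a difference of -2.39. IRF1 sat at 2.37 and 0.33, and TNFAIP3 at 2.42 and 0.098. CXCL3, a neutrophil chemokine, read -1.77 and RELB, an NF-kB subunit, -1.38. CCL20, TNF and CXCL3 each rested on 1 probe set. Members near the median were ICAM1, an adhesion molecule (-0.68), TNIP1 (-0.67), NFKB2 (-0.61) and CXCL8 (interleukin 8, -0.54). The other 11 members, including these 4, were within 2-fold.

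The promoters of 4 NF-kB targets past the cutoff are shown because their motifs lie close before the start, 79 bases for the 3 chemokines and 55 for TNFAIP3. The motif, GGG and TTTCC with any 2 bases between them, was searched on both strands. It was found in 10 of 15 NF-kB targets with a promoter and in 2.33% of all genes in the table. Of the 10, 4 were at least 2-fold lower, and of the 5 without it, 2 were. CXCL1, named after its value was seen, read -1.10. CXCL1 and CXCL3 are close copies, as their promoters show, and probe sets of such genes can share targets, so their 2 values may not be separate readings. The windows are chr2:227813718-227813807 (plus strand) for CCL20, chr6:137867159-137867248 (plus) for TNFAIP3, chr4:73869269-73869358 (plus) for CXCL1 and chr4:74038724-74038813 (minus) for CXCL3.
CCL20: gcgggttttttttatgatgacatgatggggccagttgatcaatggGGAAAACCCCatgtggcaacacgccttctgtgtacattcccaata
TNFAIP3: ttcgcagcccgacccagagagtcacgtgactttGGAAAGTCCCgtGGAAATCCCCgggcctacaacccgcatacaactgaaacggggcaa
CXCL1: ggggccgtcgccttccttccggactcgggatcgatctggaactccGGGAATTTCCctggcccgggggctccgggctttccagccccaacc
CXCL3: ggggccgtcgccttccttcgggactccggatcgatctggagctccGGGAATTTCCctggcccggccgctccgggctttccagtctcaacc

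Immediate early genes, the transcription factors that signals such as serum switch on without new protein, sat at 0.36 on the vehicle array and -0.074 on the tamoxifen array by their median. Of 23 measured, 20 lay below 0 and 5 were at least 2-fold lower (1.79% of all genes were). The median was -0.47, and -0.30 without the suffixes _s_at and _x_at. IER2 read -1.76, JUN -1.48, JUNB -1.21, EGR1 -1.18 and KLF10 -1.05, and 4 of these 5 were farther from the centre on the vehicle array. JUN, an AP-1 subunit, sat at 1.61 on the vehicle array and 0.15 on the tamoxifen array, and its 4 probe sets ran from -1.96 to -0.64, with a value of -0.65 without the same suffixes. The MAPK feedback list, whose genes damp MAP kinase signals, had 8 of 17 members above 0 and a median of -0.042. Its 3 members at least 2-fold lower were the phosphatases DUSP6 (-1.39), DUSP5 (-1.25) and DUSP4 (-1.06), farther from the centre on the vehicle array. With the mean over probe sets DUSP6 read -0.95 and DUSP4 -0.96. The other phosphatases of the list did not pass, with DUSP10 at -0.80, DUSP8 at -0.45, DUSP1 at -0.22 and DUSP2 at 0.24, values given after they were seen.

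Targets of NRF2, the transcription factor of the oxidative stress response, had 14 of 17 members below 0 and a median of -0.48. The 3 members at least 2-fold lower (1.79% of all genes were) were OSGIN1 (-1.98), SLC7A11 and HMOX1, the heme oxygenase (-1.28). These 3 were high on the vehicle array, at 1.44, 1.42 and 1.23. Among the 11 members with several probe sets the median was -0.22. Of 17 interferon-stimulated genes, 12 lay below 0, with MX1, an antiviral GTPase, at -1.20 and IRF9, a subunit of the interferon-activated factor, at -1.10. Their median was -0.49, but 0.029 among the 6 members with several probe sets, so the direction of this list is not settled. Of the p53 targets, 12 of 18 lay below 0, with SESN2 (also an ATF4 target) and CDKN1A (the cell cycle inhibitor p21, -1.08) lower and FAS, a death receptor, higher at 1.60, with 5 probe sets from 0.88 to 2.47 and a value of 0.87 without the suffixes _s_at and _x_at.

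A second set of low genes lay near the centre on the vehicle array and far below it on the tamoxifen array. TFF1, a secreted trefoil peptide and textbook target of the estrogen receptor, sat at -0.014 on the vehicle array and -2.85 on the tamoxifen array, a difference of -2.85 or 7.22-fold. FOLR1 sat at 0.098 and -2.32. TFF3, the related trefoil peptide and a luminal marker, sat at 0.13 and -1.48, a difference of -1.64. AZGP1, a secreted zinc-binding glycoprotein, and TIMP1, an inhibitor of metalloproteinases, both named after their values were seen, sat at 0.16 and 0.21 with vehicle and at -2.22 and -2.01 with tamoxifen. On the vehicle array these 5 genes did not stand away from the centre. TFF1, TFF3, AZGP1 and TIMP1 each rested on 1 probe set.

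By their medians, lysosomal genes and metallothioneins also lay near the centre on the vehicle array and below it on the tamoxifen array, but less far. The tamoxifen array was the farther in 299 of the 353 lower genes in general. Of 18 lysosomal enzymes and membrane proteins, 13 lay below 0, with a median difference of -0.57 and median positions of 0.064 on the vehicle array and -0.41 on the tamoxifen array. CTSA, a protease that protects other lysosomal enzymes, read -1.33 and SGSH, a sulfatase, -1.02. Near the median lay GLA (-0.66), GAA (-0.60), CTSB (cathepsin B, -0.57) and PSAP (-0.57). Among the 10 members with several probe sets the median was -0.19. Subunits of the vacuolar ATPase, which acidifies lysosomes, had a median of -0.12, with 0 of 15 past the cutoff in either direction.

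Metallothioneins bind zinc and copper and are switched on by metals. Of 9 measured, 8 lay below 0 and 3 were at least 2-fold lower (1.79% of all genes were). These 3 were MT1X (-1.37), MT1F (-1.15) and MT1H (-1.04). MT2A read -0.65, MT1E -0.50, MT1G -0.44 and MT1M -0.27. The list sat at 0.060 on the vehicle array and -0.50 on the tamoxifen array. Metallothioneins are near-identical copies, and their probe sets can share targets. Without the suffixes _s_at and _x_at 4 genes remained, with a median of -0.13, and the 4 with several probe sets had a median of -0.83. Zinc transporters read differently, with 11 of 18 above 0 and 2 at least 2-fold higher. SLC39A6, the zinc importer LIV-1, sat at -0.17 and 2.20, a difference of 2.35, although its 4 probe sets ran from 0.17 to 3.36 and its value was 1.36 without the suffixes _s_at and _x_at. SLC39A10 read 1.17.

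The promoters of MT1X and CTSA are shown because each carries the motif of its group. The metal response element TGCNCNCG was found in 4 of 4 metallothioneins with a promoter, but also in 19.9% of all genes in the table. The CLEAR element TCACGTGA of lysosomal genes was found in 4 of 13 and in 1.18%. Of the 4 lysosomal members with it, 1 was at least 2-fold lower, and of the 9 without it, 0 were. The windows are chr16:56682372-56682461 (plus strand) for MT1X and chr20:45891245-45891334 (plus) for CTSA, with the nearest motif 53 and 26 bases before the start.
MT1X: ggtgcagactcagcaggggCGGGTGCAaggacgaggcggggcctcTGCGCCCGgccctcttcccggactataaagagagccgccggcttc
CTSA: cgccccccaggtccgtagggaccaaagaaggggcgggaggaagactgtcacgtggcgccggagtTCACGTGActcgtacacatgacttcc

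Lists of ribosome, glycolysis and replication genes had most members below 0. Cytosolic ribosomal proteins had 15 of 17 members below 0 and a median of -0.25, and 0 were past 2-fold. Ribosome biogenesis factors had 12 of 16 below 0 and a median of -0.33. Glycolytic genes had 13 of 19 below 0 and a median of -0.39, with ALDOC (-1.67), ENO2 (-1.48) and PKM, the pyruvate kinase (-1.04, but -0.60 without the suffixes _s_at and _x_at), at least 2-fold lower. Replication genes of the G1/S transition had 16 of 21 below 0 and a median of -0.34. The licensing factors ORC1 (-1.30) and CDT1 (-1.30) and the helicase subunit MCM7 (-1.0008) were lower, whereas CCNE2, a cyclin of the same transition, was higher (1.39, with probe sets at 0.28 and 2.50, and 0.27 without the suffix _s_at).

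On the higher side, most genes of the mitosis lists lay above 0. Cells that enter mitosis need CDK1 and its cyclins, kinesin motors that build the spindle, kinetochore proteins that attach chromosomes and condensins that compact them. Of 21 mitotic kinesins and spindle proteins, 20 lay above 0 and 8 were at least 2-fold higher (1.65% of all genes were), with a median of 0.76 and 0 lower. Among the 9 members with several probe sets the median was 1.15. Of 20 G2/M genes, 17 lay above 0 and 4 were at least 2-fold higher, with a median of 0.57. By their medians both lists sat below the centre on the vehicle array, at -0.36 and -0.45, and near it on the tamoxifen array, at 0.14 and -0.021.

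FAM83D, a spindle protein, sat at -1.20 on the vehicle array and 1.02 on the tamoxifen array, a difference of 2.20. ASPM sat at -1.02 and 1.48. KIF18A, a kinesin that sets chromosome alignment, sat at -0.70 and 1.21, a difference of 1.89. FAM83D and KIF18A each rested on 1 probe set. ANLN (anillin) read 1.93, NUSAP1 1.45 and KIF14 1.41. Without the suffixes _s_at and _x_at ANLN read 2.93 and NUSAP1 0.36. Near the median lay DLGAP5 (0.85), KIF23 (0.77), TPX2 (0.76) and SPAG5 (0.64). The spindle genes thus spread from the centre line of all genes to more than 5-fold.

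CDK1, the kinase that drives entry into mitosis, had a gene value of 1.70, but its 4 probe sets read 0.29, 1.67, 1.73 and 3.68. They read -0.44 to -0.16 on the vehicle array and 0.24 to 3.35 on the tamoxifen array, as deposited, so the size of the difference depended on the probe set. NEK2, a centrosome kinase, read 1.38, with probe sets at -0.04 and 2.79, and without the suffix _s_at its value was -0.042. TOP2A (topoisomerase II alpha) read 1.19 with probe sets from 0.61 to 1.33, and HMMR 1.11. Without the suffixes _s_at and _x_at HMMR read 0.55 and TOP2A 0.96, so that of the 4 G2/M genes past the cutoff CDK1 alone keeps its call there. CCNB1 (cyclin B1, 0.60), AURKA (0.59), BUB1B (0.55) and BIRC5 (survivin, 0.55) were near the list median.

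The promoters of TOP2A, NEK2 and HMMR are shown because G2/M promoters are known for pairs of CCAAT boxes, which NF-Y binds. CCAAT on either strand was found in 15 of 16 G2/M genes with a promoter and in 39.7% of all genes in the table. The 4 G2/M genes at least 2-fold higher all carried it. The windows are chr17:40417905-40417994 (minus strand) for TOP2A, chr1:211675622-211675711 (minus) for NEK2 and chr5:163460521-163460610 (plus) for HMMR, where boxes of the 2 strands overlap.
TOP2A: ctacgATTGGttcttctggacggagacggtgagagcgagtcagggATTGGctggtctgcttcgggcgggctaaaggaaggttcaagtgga
NEK2: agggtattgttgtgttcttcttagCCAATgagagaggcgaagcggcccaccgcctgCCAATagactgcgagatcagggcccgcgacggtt
HMMR: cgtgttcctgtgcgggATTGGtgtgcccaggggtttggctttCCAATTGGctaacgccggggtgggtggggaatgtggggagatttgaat

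Proteins of the chromosome and kinetochore followed. Of 21 kinetochore and centromere genes, 18 lay above 0, with a median of 0.34, and CENPA, the histone that marks centromeres (1.80), ZWILCH (1.60, probe sets at 0.04 and 3.17) and CENPE, a kinetochore motor (1.20), were at least 2-fold higher. Of 19 cohesin and condensin genes, 17 lay above 0, with a median of 0.47, and 4 were at least 2-fold higher (1.65% of all genes were). These 4 were SMC4 (1.32), RAD21 (1.252), NCAPD2 (1.03) and NCAPH (1.02). RAD21, the cleavable cohesin subunit, had probe sets at -0.32 and 2.82. Without the suffixes _s_at and _x_at the median of this list was 0.22, SMC4 read 0.19 and ZWILCH 0.033. The 4 members past the cutoff were farther from the centre on the tamoxifen array, as were 5 of the 8 spindle genes past it. For higher genes in general the count was 310 of 326. Centrosome genes had 17 of 21 above 0 and a median of 0.23, and histone genes 10 of 13 and a median of 0.36.

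The Hippo pathway restrains YAP1, which acts with TEAD factors on growth genes. Of 15 Hippo targets and factors, 14 lay above 0 and 3 were at least 2-fold higher (1.65% of all genes were). Their median was 0.44. CRIM1, a membrane protein that binds growth factors, sat at -0.10 on the vehicle array and 2.03 on the tamoxifen array, a difference of 1.97, with probe sets at 0.13, 1.97 and 2.47. TEAD1 sat at -0.24 and 1.86, and FJX1 read 1.17. CCN2 (0.52), YAP1 (0.51), PTPN14 (0.44) and AMOTL2 (0.43) lay near the median. All 3 members past the cutoff were farther from the centre on the tamoxifen array, as were 310 of the 326 higher genes in general.

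The 4 cell junction genes past the cutoff also had this layout, which was that of most higher genes. Of 15 gap and tight junction proteins, 10 lay above 0 and 4 were at least 2-fold higher (1.65% of all genes were). Their median was 0.34. GJA1 (connexin 43) sat at -0.67 and 1.62, a difference of 2.28 on 1 probe set. The tight junction proteins CLDN1 and CLDN8 read 1.32 (0.93 without the suffix _s_at) and 1.21, and GJB6 (connexin 30) 1.18. OCLN (occludin) read 0.49, CLDN12 0.34, GJB2 0.33 and MARVELD2 0.18.

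Other high members came from lists with medians near 0, so that single genes and not the lists stood out. ANXA3, a membrane-binding annexin, sat at -0.073 on the vehicle array and 2.55 on the tamoxifen array, and its difference of 2.60 rested on 1 probe set. The list of annexins and S100 proteins had a median of 0.074, with ANXA4 at 1.14 and S100P at -1.07. TMED2, a cargo receptor of early secretory transport, read 2.15, with probe sets from -0.23 to 2.68. NFAT5, the transcription factor of osmotic stress, read 2.15, with probe sets from -0.096 to 2.23, and turned to -0.10 without the suffixes _s_at and _x_at. DKK1, a Wnt inhibitor, read 1.43 and USP1, a deubiquitinase of DNA repair, 1.48. TCF7L2, a Wnt effector, read 1.23 with 7 probe sets between -1.17 and 2.22, and turned to -0.66 without these suffixes and read 0.80 with the mean over probe sets.

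**Figure D3:**
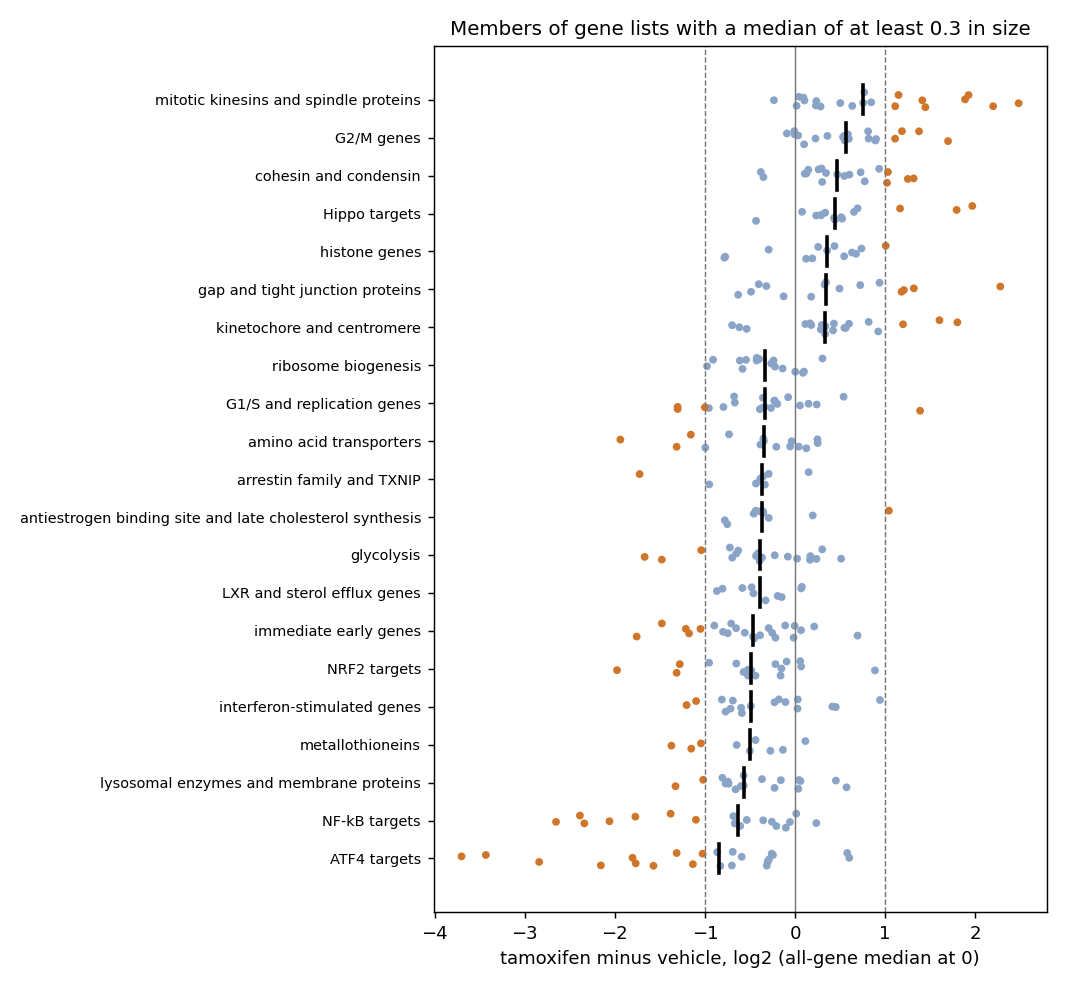
Log2 difference, tamoxifen minus vehicle, of each measured member of the 21 gene lists whose median was at least 0.3 in size, with members past 2-fold (dashed lines) in orange, the others in blue and the list median as a black bar. ATF4 targets reach -3.70 and mitotic kinesins and spindle proteins reach 2.48, and most lists keep members on both sides of 0.

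The estrogen receptor pathway itself showed no common direction. ESR1 read 0.074, with 9 probe sets between -0.010 and 0.68, and ESR2, the second estrogen receptor, 0.043. GPER1, a membrane receptor for estrogen, read -0.10 and ESRRG, an orphan receptor to which tamoxifen metabolites bind, 0.43, with probe sets at 0.020 and 0.84. The receptors of the drug thus differed by less than 2-fold between the arrays.

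Of 34 genes known to be induced by estrogen, 14 lay above 0 and 20 below, and 3 were at least 2-fold higher (1.65% of all genes were). At least 2-fold lower were 3 (1.79% of all genes were), and the median was -0.21. That median was 0.13 among the 21 members with several probe sets and -0.36 without the suffixes _s_at and _x_at, so its sign is not settled. On the lower side were TFF1 (-2.85), RAPGEFL1 (-1.38) and ABCA3, a lipid transporter (-1.15), all near the centre on the vehicle array. On the higher side were MYC, the growth transcription factor (1.14), PGR, the progesterone receptor (1.07), and CXXC5 (1.01, with probe sets from -0.28 to 1.05 and a mean of 0.59). The probe sets of PGR read -0.52 and -0.62 on the vehicle array and 0.51 and 0.68 on the tamoxifen array, as deposited. MYC sat at -0.47 and 0.70. TFF1, RAPGEFL1 and MYC each rested on 1 probe set.

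GREB1, an estrogen-induced cofactor of the receptor, read 0.46, with probe sets from -0.58 to 0.59. The 2 probe sets of CCND1 (cyclin D1) went opposite ways. The one with the suffix _at read 0.010 on the vehicle array and -0.84 on the tamoxifen array, as deposited, and the one with the suffix _s_at read -0.78 and 0.54. Their relative differences were -0.96 and 1.21, and the gene value of 0.13 describes neither. MYB, MYBL1, RARA and SUSD3 lay near the list median, between -0.28 and -0.18. The full palindrome of the estrogen response element, GGTCA and TGACC with any 3 bases between them, was searched on both strands. It was found in 0 of 25 of these promoters and in 0.0732% of all genes in the table, which says only that these letters are not in these windows.

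Genes of the antiestrogen binding site with late cholesterol synthesis, of sterol export and of tamoxifen metabolism were read from separate lists. Of 10 genes of the antiestrogen binding site and late cholesterol synthesis, 8 lay below 0, with a median of -0.37. EBP, the sterol isomerase of the binding site, read -0.39 and DHCR7, its reductase partner, -0.78. SQLE, an earlier enzyme of the same list, was the 1 member past the cutoff, at 1.04, with probe sets from 0.36 to 2.13 and a value of 0.78 without the suffixes _s_at and _x_at. LXR targets, which export sterols, had 8 of 10 below 0 and a median of -0.39 (-0.19 among the 7 with several probe sets). Of 12 tamoxifen-metabolising enzymes, 10 lay above 0, with a median of 0.16. CYP2D6, which forms endoxifen, read -0.0010 and CYP3A4 0.18. CYP1B1, a target of the aryl hydrocarbon receptor, sat at -0.52 and 1.46, a difference of 1.97 with probe sets from 0.15 to 2.47. CYP1A1, from the same receptor's list, read 1.08. The 10 members of that list had a median of 0.14, with 7 above 0 and 2 at least 2-fold higher (1.65% of all genes were).

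Marker lists of cell types gave little difference between the arrays. Of 19 luminal markers, 9 lay above 0 and 10 below, with a median of -0.094, and TFF3 was the 1 member past the cutoff. KRT18 read -0.09, KRT19 -0.16 and GATA3 -0.18. Basal and myoepithelial markers ran from -0.55 to 0.72 (12 genes), fibroblast markers from -0.88 to 0.75 (13 genes), endothelial markers from -0.16 to 0.24 (10 genes) and leukocyte markers from -0.20 to 0.46 (10 genes). None of the members of these 4 lists was past the cutoff. Over the 72 lists, 43 medians lay below 0 and 29 above. The lists held 118 of the 679 genes past the cutoff, and 561 were in no list.

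The genes past the cutoff also shared a feature that the rule did not use, the length of the gene on the chromosome. Higher genes had a median length of 53.01 kb and lower genes of 13.3 kb, against 24.7 kb for all genes. Genes were put into 5 classes of equal number by length. In the class of shortest genes (up to 6.70 kb) 0.633% were at least 2-fold higher and 2.74% lower. In the class of longest genes (from 84.7 kb) 2.91% were higher and 0.608% lower. The 3 classes between fell in order, with 1.09%, 1.44% and 2.15% higher and 2.41%, 1.82% and 1.37% lower. The median difference went from -0.075 in the shortest to 0.11 in the longest. The 2 directions thus changed places along the range of lengths.

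**Figure D4:**
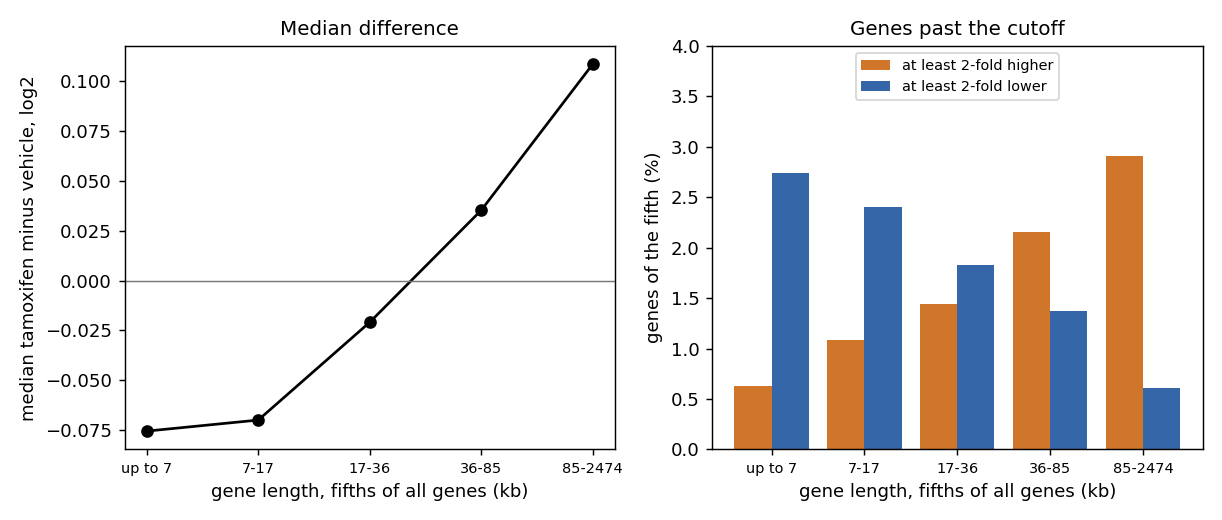
Median log2 difference, tamoxifen minus vehicle, in 5 equal classes of gene length in kb (left), and the percentage of genes of each class that were at least 2-fold higher (orange) or lower (blue) on the tamoxifen array (right). The share of higher genes goes from 0.633% to 2.91% with length, while the share of lower genes goes from 2.74% to 0.608%.

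The order held in protein-coding genes, where higher genes went from 0.666% to 3.18% and lower ones from 3.57% to 0.605% between the end classes. Genes with several probe sets gave 0.523% to 2.95% and 1.62% to 0.238%. With probe sets of the suffix _at alone, which are designed to match 1 transcript, the shares were 0.746% to 2.51% and 2.74% to 0.836%. Over 19734 genes (not independent of each other) the difference and the log10 of length had a Pearson correlation of 0.186 and a Spearman correlation of 0.197. The lower genes that were farther from the centre on the vehicle array were the shortest, with a median of 9.95 kb, but those farther on the tamoxifen array were short too, at 14.2 kb. Chromosome 19 had a median difference of -0.16, with 4 genes higher and 43 lower of 1320, and chromosome 16 also -0.16. The medians of chromosomes 4 and 13 were both 0.12. Median gene lengths were 14.7 kb on chromosome 19 and 17.1 kb on chromosome 16, against 42.9 kb on chromosome 4 and 38.9 kb on chromosome 13. The part of length in the chromosome medians was not tested. Of 2658 genes for long noncoding RNA, 0.451% were higher and 0.602% lower, against 1.86% and 1.96% of 16517 protein-coding genes.

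Disagreement between probe sets of the same gene was common and had a pattern of its own. Of the 294 genes past the cutoff with several probe sets, 231 (78.6%) had all of them on one side of 0, against 41.4% of all genes with several. The rule itself favours this, since the 294 were picked by a median of the same probe sets far from 0. The contrast is therefore no measure of reliability. In 60 genes (0.570%) probe sets were past the cutoff on both sides, so that the same gene could be read as higher or lower. These 60 had a median length of 65.4 kb, against 37.7 kb for genes with several probe sets, and 4 of them were past the cutoff by their median. The 60 also had a median of 5 probe sets per gene. The part of probe set number in the difference of length was not tested.

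The cases below were picked after their values were seen. Other genes had ranges as wide as some of these, such as PEG10, from -1.23 to 2.28. MALAT1, a nuclear noncoding RNA, had 12 probe sets between -1.11 and 3.09. KMT2A, a histone methyltransferase, had 11 between -1.51 and 2.40. CLIP1, a microtubule-end protein, ran from -1.36 to 2.73. WASF2, an actin regulator, ran from -1.32 to 2.33, TAOK1, a kinase, from -1.20 to 2.49 and PRKAR1A, a subunit of protein kinase A, from -1.11 to 2.12. Their gene values lay between -0.17 and 0.79 and hide both readings.

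**Figure D5:**
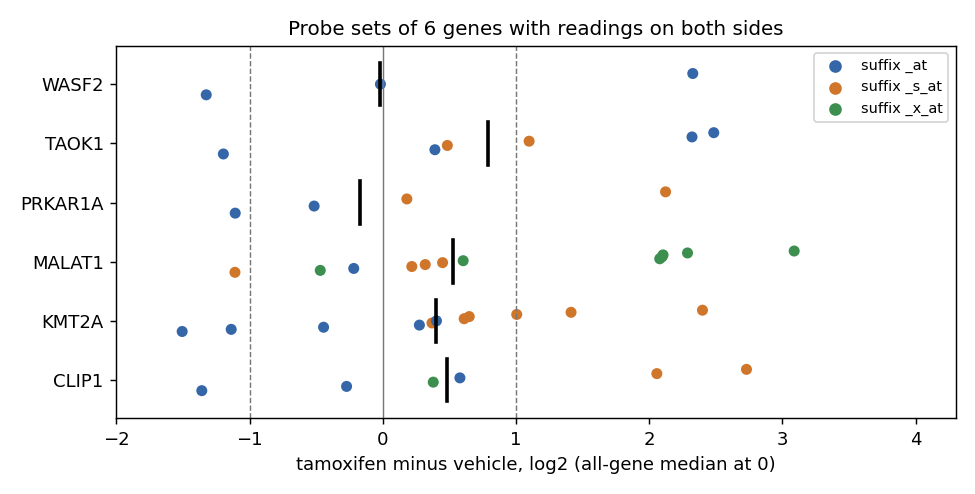
Log2 difference, tamoxifen minus vehicle, of each probe set of 6 genes with readings past 2-fold (dashed lines) on both sides, coloured by suffix, with the gene median as a black bar. In MALAT1 the 5 highest points have the suffix _x_at, and in KMT2A and CLIP1 the highest points have the suffix _s_at and the lowest _at.

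The suffix, which records how specific a probe set is, went with the direction. Among probe sets with 1 symbol, 7.84% of those with the suffix _s_at were at least 2-fold higher and 2.87% lower, against 2.89% and 2.63% of those with _at. In the 60 genes with both directions, 33 of 87 _s_at probe sets were higher and 9 lower, whereas 33 of 191 _at probe sets were higher and 53 lower. Within the 4737 genes that had both kinds, the _s_at reading was above the _at reading by a median of 0.054, by at least 1 in 368 genes and below by at least 1 in 149. Probe sets without a name here leaned the other way, with 201 of 11721 higher (1.71%) and 464 lower (3.96%), so the genes left out by the rule had more lower than higher readings.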

How the data were processed

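RNA of T47D cells treated with vehicle or tamoxifen was read on 1 Affymetrix array each. The values of the third array of the series (estradiol) were not used. The authors deposited log2 values computed by RMA (background correction, quantile normalization and probe summary), as named without a version in the submitters' processing notes. The values scatter around 0 because each probe set was centred before deposit, which no label records, so log base 2 could not be checked and folds rest on it. No filter on signal was possible.

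Gene symbols came from the platform annotation: 41091 probe sets had 1 symbol, 1801 several (left out), 11721 were unnamed here and 62 were controls. Entrez identifiers of 41037 matched RefSeq (GRCh38.p14), and 0 symbols changed. Gene values are medians over probe sets, minus the all-gene median. Genes named are the 15 highest and 15 lowest with several probe sets all past the cutoff, up to 6 members past it and up to 4 nearest the median of each list described, a few fixed genes, and others that the text marks as chosen later. The members and the 72 lists were chosen with earlier results of these data known, and lists share genes (1263 memberships, of which 1155 were measured, in 1111 genes). Motifs were searched in the promoter windows of RefSeq. A comparison by promoter GC content was void, since 77.8% of genes had a promoter in the table, under the required 80%. Python 3.11.15, pandas 2.3.3, numpy 2.4.6 and matplotlib 3.10.9 were used, and the calculations were tested on simulated data. Alternatives were another cutoff, no centring, other probe sets and another summary.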

Additional observations from a re-analysis of the deposited data

Results flagged for a closer look

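Control probe sets enter no gene value, and 6 of the 62 read at least 2-fold higher with tamoxifen than with vehicle, as deposited. The 3 probe sets for 18S ribosomal RNA read 1.59 (3' end), 1.96 (5' end) and 2.13 (middle) higher on the log2 scale. For 28S ribosomal RNA the 5' end read 2.20 higher, while its 3' and middle probe sets read 0.045 and -0.010. A control probe set for the middle part of an interferon-stimulated transcription factor read 2.12 higher. Another middle probe set of this transcript read 0.019, its 3' probe set 0.55 and its 5' probe set 0.67. The 5' probe set of dap, a bacterial polyadenylated spike, read 1.12 higher, the highest of 27 probe sets of such spikes, whose median was 0.40 and whose range reached down to -0.94. With 1 array a group no outlier among replicates could be looked for, and no second contrast was available within the 2 arrays.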

How the results depend on the processing

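No paired analysis was possible because each group had 1 array, and for the same reason no array could be left out in turn. Against 679 genes past 2-fold, 3009 were counted at 1.5-fold (1255 higher, 1754 lower) and 294 among genes with at least 2 probe sets (201 and 93), and 2842 probe sets were counted with no summary per gene (1765 and 1077). Without centring 217 genes were lower. The share of higher genes was 48.0%, and it was 41.7% at 1.5-fold, 66.4% without centring, 42.6% without the suffixes _s_at and _x_at, 68.4% among genes with at least 2 probe sets and 62.1% per probe set. Without these suffixes list medians were -0.71 for ATF4 targets, -0.21 for NF-kB targets, -0.23 for interferon-stimulated genes, -0.30 for immediate early genes, -0.13 for metallothioneins and 0.22 for cohesin and condensin. With the mean over probe sets they were -0.99 for ATF4 targets and -0.87 for NF-kB targets. Among genes with at least 2 probe sets they were -0.59 for ATF4 targets, -0.22 for NRF2 targets, -0.83 for metallothioneins, -0.19 for lysosomal genes and 1.15 for mitotic kinesins, and interferon-stimulated genes turned to 0.029. These 3 settings use fewer probe sets or genes or another summary, and no further cause was tested. Of the named genes past the cutoff, 121 stayed past it without centring and 122 with the mean. Of the 100 that could be read without the suffixes, 81 stayed past it and 4 turned: NEK2 (-0.042), NFAT5 (-0.10), SMARCC1 (-0.13) and TCF7L2 (-0.66). Signal over background is unknown in centred values, so dim probe sets could not be set apart.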
